A study of Mus musculus with 2 samples.

Results

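The genes described here are those of the Wnt ligands, their receptors and co-receptors, their secreted inhibitors, the R-spondins with their Lgr receptors, and the feedback inhibitor Axin2. Members were chosen by name: every protein-coding gene whose GENCODE symbol is Wnt, Fzd, Sfrp or Dkk followed by a number, together with Lrp5, Lrp6, Wif1, Axin2, Rspo1 to Rspo4 and Lgr4 to Lgr6. The rule gave 48 genes of 21474 protein-coding genes and 43346 annotated genes, and all 48 were found by Ensembl identifier in both libraries. They are 19 Wnt ligands, 10 Frizzled receptors, 2 Lrp co-receptors, 9 secreted inhibitors, 4 R-spondins, 3 Lgr receptors and Axin2.

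Wnt proteins are secreted, lipid-modified signals that bind a Frizzled receptor on the cell surface, and with Lrp5 or Lrp6 as co-receptor they stop the breakdown of beta-catenin, which then acts with TCF and LEF factors on target genes. Sfrp proteins and Wif1 bind the ligands outside the cell, most Dkk proteins block the Lrp co-receptors, and R-spondins acting through Lgr receptors keep Frizzled receptors on the surface by holding back the ubiquitin ligases Znrf3 and Rnf43. In the cerebellum, Wnt1 is known for its part in setting up the midbrain and hindbrain of the embryo, and Wnt7a, made by granule neurons, is known as a signal that remodels the mossy fibre endings that contact them.

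The study measured polyadenylated RNA of the cerebellum of C57BL/6J mice aged 8 weeks in 2 strand-specific, paired-end libraries, labelled biological replicates 1 and 2, which form the only group. No treatment, genotype or time is compared, so no p-value is given, and each level is shown for both libraries with the mean and SD over n = 2. Both libraries carry the label of males and females pooled from littermates of mixed sex, with a single donor record, so the SD covers the spread between these 2 libraries only. The tables hold 83109117 and 84279927 expected counts, of which 96.0% and 95.3% fell on annotated genes.

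The libraries went against the pooled label. Xist, the RNA that silences an X chromosome in females, stood at 93.5 TPM in replicate 1 and 0.0300 TPM in replicate 2, and the Y-linked gene Eif2s3y at 0 and 42.9 TPM. TPM counts the transcripts of a gene relative to all transcripts of the library, corrected for length. Marker lists of granule neurons, Purkinje neurons, interneurons, astrocytes and oligodendrocytes were at 1 TPM or more for every gene in both libraries, while the 4 markers of granule progenitors and cycling cells summed to 0.360 TPM in each. The summed level of the 8 choroid plexus markers was 2139 TPM in replicate 1 and 787 TPM in replicate 2, with 8 of 8 lower in replicate 2; those of ependyma (6 of 6 lower, 31.9 and 20.2 TPM) and meningeal fibroblasts (8 of 8 lower, 106 and 71.8 TPM) were lower in the same library, and no marker of these lists was at 0 counts. In bulk tissue, fewer cells of a type and less RNA per cell cannot be told apart.

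At 1 TPM or more in both libraries stood 9 of 10 Frizzled receptors, both Lrp co-receptors, 3 of 3 Lgr receptors, 5 of 9 secreted inhibitors, 7 of 19 ligands and 1 of 4 R-spondins, with Axin2. That is 28 of 48 members, or 58.3%, beside 60.9% of all protein-coding genes, a share close to that background. The count of ligands rests on this threshold: 10 of 19 ligands reached 0.5 TPM in both libraries, and 15 of 19 had at least 10 counts over both. The median member stood at 1.71 TPM and the median protein-coding gene at 4.77 TPM. The highest member, Wnt7a, held rank 4900 among the 21474 protein-coding genes. In the order of the 28 members by mean level, 16 of the 27 neighbouring pairs had overlapping values in the libraries and 11 did not.

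**Figure D1:**
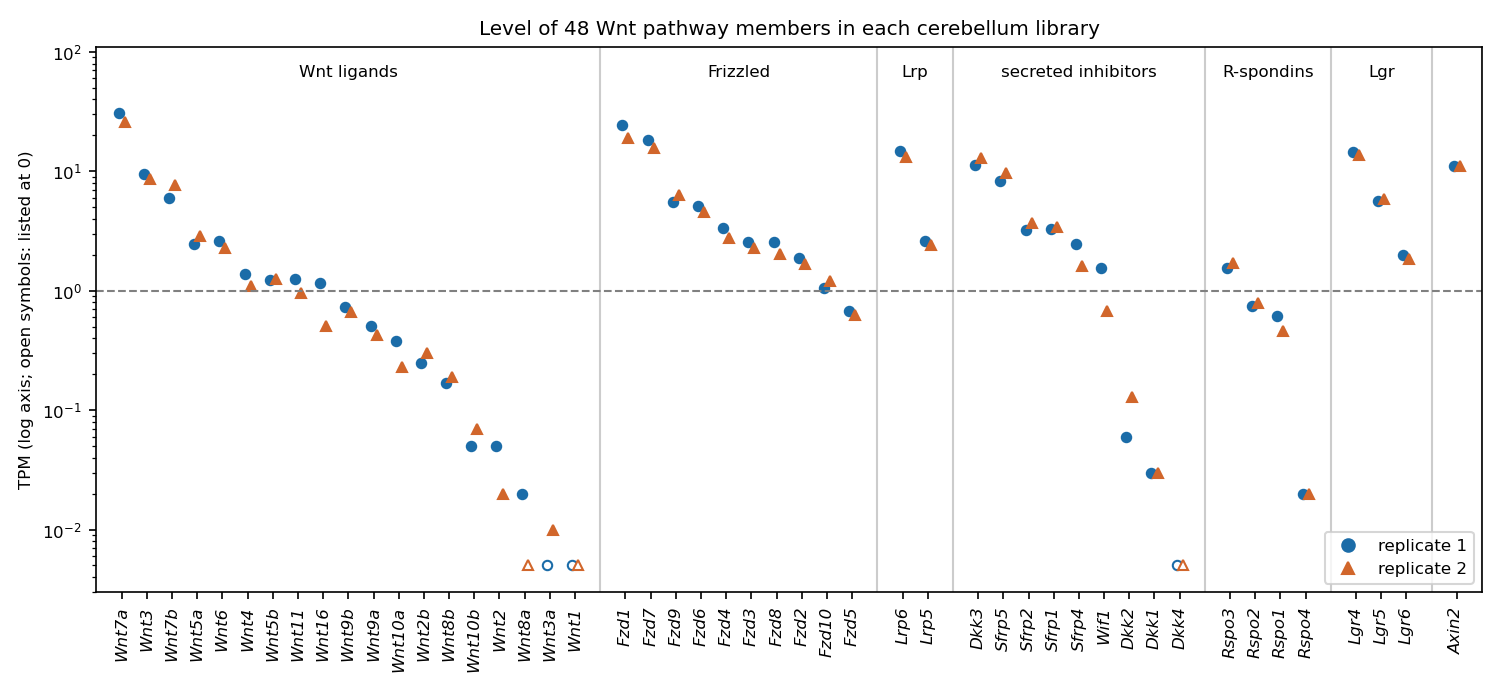
Level of each of the 48 members in replicate 1 (circles) and replicate 2 (triangles), in TPM on a log axis, grouped by role and ordered by mean within each group; open symbols are values listed at 0 and the dashed line marks 1 TPM. The Frizzled and Lgr receptors lie at or above the line except Fzd5, while the ligands spread from Wnt7a at 30.7 and 25.8 TPM down to Wnt1, listed at 0 in both.

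Wnt7a was the leading ligand. It stood at 30.7 TPM in replicate 1 and 25.8 TPM in replicate 2, a mean of 28.2 ± 3.52 TPM (SD, n = 2) from 4775 and 4287 counts. Its gene (ENSMUSG00000030093.6) lies on chr6:91363981-91411363 of mm10 on the minus strand. Wnt7a alone made up 52.6% and 48.6% of the summed TPM of the 19 ligands, and its lower value was above the higher value of every other member.

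Wnt3, a ligand of the beta-catenin branch, was the next ligand at 9.53 and 8.63 TPM. Wnt7b, the paralogue of Wnt7a, which with it is known to guide brain vessels, followed at 5.94 and 7.70 TPM. The values of Wnt3 and Wnt7b did not overlap, and both were below Wnt7a in each library. Wnt5a, a ligand known mainly for signals that do not run through beta-catenin, was at 2.47 and 2.85 TPM. Wnt6 was at 2.60 and 2.30 TPM, so that the ranges of Wnt5a and Wnt6 overlapped. Wnt4, known for its part in kidney and gonad formation, was at 1.38 and 1.09 TPM, and Wnt5b, the paralogue of Wnt5a, at 1.22 and 1.25 TPM; these last ligands above 1 TPM did not separate from each other.

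The other 12 ligands were under 1 TPM in at least 1 library. Wnt11 was at 1.26 and 0.96 TPM and Wnt16 at 1.17 and 0.51 TPM, each above 1 TPM in replicate 1 only. For Wnt11 this did not come with fewer counts, which were 83 and 84, while Wnt16 had 88 and 39. Wnt9b was at 0.73 and 0.66 TPM, Wnt9a at 0.51 and 0.43 TPM, Wnt10a at 0.38 and 0.23 TPM, and Wnt2b at 0.25 and 0.30 TPM. Wnt8b, Wnt10b, Wnt2, Wnt8a, Wnt3a and Wnt1 lay between 0 and 0.19 TPM. Wnt1, the ligand of the embryonic midbrain and hindbrain, had 0 counts in both libraries; a count of 0 allows up to 3 counts, or 0.0260 TPM in replicate 1 and 0.0246 TPM in replicate 2, as a limit of counting error only. At this depth Wnt1 was not detectable.

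Several ligand genes are neighbours on a chromosome. Wnt3 and Wnt9b lie head to head on chromosome 11, 24328 bases apart, with Wnt3 at 9.53 and 8.63 TPM beside Wnt9b at 0.73 and 0.66 TPM. Wnt6 and Wnt10a lie on the same strand of chromosome 1, 6193 bases apart, with Wnt6 at 2.60 and 2.30 TPM and Wnt10a at 0.38 and 0.23 TPM. Of the pair Wnt9a and Wnt3a on chromosome 11, 16175 bases apart, Wnt9a was the one with counts above the limit that a count of 0 allows. Wnt10b and Wnt1 on chromosome 15 were both near 0, with 5 and 8 counts of Wnt10b and none of Wnt1.

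Fzd1 and Fzd7 led the receptors. Fzd1 (ENSMUSG00000044674.5, chr5:4753839-4758035, minus strand, mm10) was at 24.4 and 18.9 TPM, a mean of 21.6 ± 3.90 TPM (SD, n = 2), and made up 37.2% and 33.6% of the Frizzled sum. Fzd7 was at 18.4 and 15.8 TPM, below both values of Fzd1. Fzd9 came next at 5.56 and 6.38 TPM, well below Fzd7 in each library. Fzd6, known for the polarity of hair and skin cells, was at 5.10 and 4.57 TPM. Fzd4, the receptor of Norrin in retinal and cerebellar vessels, was at 3.35 and 2.78 TPM. Fzd3, known for the guidance of axons, was at 2.56 and 2.27 TPM, Fzd8 at 2.54 and 2.04 TPM, Fzd2 at 1.88 and 1.68 TPM and Fzd10 at 1.06 and 1.21 TPM. Fzd3 and Fzd8 overlapped, and Fzd5, at 0.68 and 0.63 TPM, was the only Frizzled gene under 1 TPM.

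Lrp6 exceeded its paralogue Lrp5 in both libraries. Lrp6, the co-receptor that binds Axin when a Wnt is present, stood at 14.7 and 13.2 TPM. Lrp5, known for its part in bone mass and retinal vessels, stood at 2.59 and 2.43 TPM. Lrp6 held 85.0% and 84.4% of the sum of the pair.

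The secreted inhibitors were led by Dkk3 and Sfrp5. Dkk3 (ENSMUSG00000030772.5, chr7:112116017-112159057, minus strand, mm10), a Dkk protein that unlike Dkk1 is not an established blocker of Lrp6, was at 11.2 and 12.9 TPM, a mean of 12.1 ± 1.23 TPM (SD, n = 2). Sfrp5, which binds Wnt proteins through a domain like that of Frizzled, was at 8.30 and 9.68 TPM. Dkk3 was above Sfrp5 in both libraries. Of the other Sfrp genes, Sfrp2 was at 3.22 and 3.66 TPM, Sfrp1 at 3.27 and 3.39 TPM and Sfrp4 at 2.46 and 1.62 TPM. Sfrp1 and Sfrp2 overlapped, and Sfrp4 was lower than both in each library. Wif1, a secreted protein that binds Wnt ligands, was at 1.54 and 0.68 TPM. The Dkk proteins that block Lrp5 and Lrp6 were nearly absent from the counts: Dkk2 was at 0.06 and 0.13 TPM, Dkk1 at 0.03 TPM in both, and Dkk4 had 0 counts in both, which allows up to 0.0512 and 0.0486 TPM.

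Lgr4 was the leading Lgr receptor, and the R-spondins that they bind were low. Lgr4 was at 14.6 and 13.7 TPM, Lgr5, the receptor known as a mark of intestinal stem cells, at 5.64 and 5.89 TPM and Lgr6 at 1.98 and 1.85 TPM. These 3 receptors did not overlap in level. Rspo3 was at 1.55 and 1.72 TPM and held 53.1% and 57.5% of the R-spondin sum. Rspo2 was at 0.74 and 0.79 TPM, Rspo1 at 0.61 and 0.46 TPM and Rspo4 at 0.02 TPM in both. The summed level of the 4 R-spondins was 2.96 ± 0.0495 TPM and that of the 3 Lgr receptors 21.8 ± 0.573 TPM (SD, n = 2).

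Axin2, a scaffold of the complex that breaks down beta-catenin and itself a target gene of the pathway, was at 11.1 TPM in both libraries, from 1928 and 1995 counts. Of the 48 members, 6 had a higher mean.

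**Figure D2:**
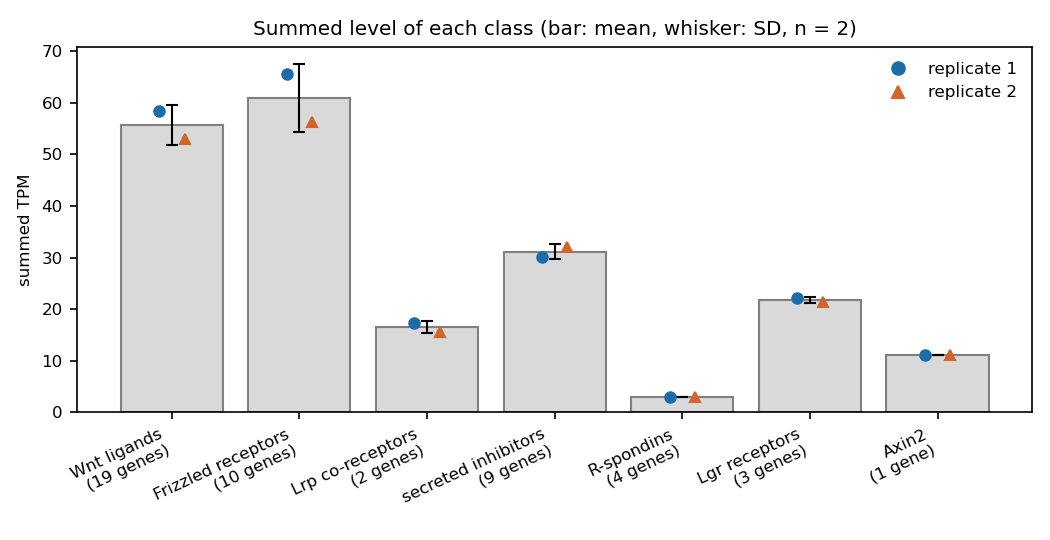
Summed TPM of each class of members; bars are the mean of the libraries, whiskers the SD (n = 2), circles replicate 1 and triangles replicate 2. The Frizzled sum (65.6 and 56.3 TPM) is above the ligand sum (58.5 and 53.0 TPM) in each library, though their ranges overlap across libraries. The R-spondin sum is the lowest at 2.92 and 2.99 TPM.

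Summed by class, ligands came to 55.7 ± 3.90 TPM, Frizzled receptors to 60.9 ± 6.57 TPM, Lrp co-receptors to 16.5 ± 1.19 TPM and secreted inhibitors to 31.1 ± 1.45 TPM (SD, n = 2). In the plot of class sums, the Frizzled sum lay above the ligand sum in each library, though their ranges overlapped across libraries. The inhibitors lay below both in each library. Because TPM counts transcripts per length, these sums compare numbers of RNA molecules and say nothing of protein.

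The other genes of the pathway came from lists of their role. Of 84 distinct genes, 75 were at 1 TPM or more in both libraries, or 89.3%, with a median of 9.99 TPM. Over all protein-coding genes the share was 60.9% and the median 4.77 TPM. The lists were picked by known role and with earlier results known, so nothing is read from that difference. At 1 TPM or more were 20 of 20 cytoplasmic transducers and 16 of 16 nuclear transducers, with medians of 35.0 and 14.3 TPM. The median of the members was 1.71 TPM. These medians describe chosen lists, and the levels of single transducers and single members overlapped. Among the cytoplasmic genes, Gsk3a, a kinase of the beta-catenin destruction complex, was highest at 143 and 135 TPM, followed by the casein kinase gene Csnk1g2 at 106 and 110 TPM, and Amer1, a partner of Apc, was lowest at 4.05 and 4.18 TPM. Among the nuclear genes, the Groucho-related gene Aes was highest at 538 and 549 TPM, followed by its relative Tle2, a co-repressor of TCF factors, at 210 and 178 TPM, and the TCF gene Tcf7 was lowest at 2.36 and 2.16 TPM.

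Of the genes acting on the lipid or the release of Wnt, 3 of 3 passed 1 TPM. Porcn, which attaches the lipid to Wnt proteins, was at 188 and 158 TPM. Wls, which carries them to the surface, was at 15.5 and 13.2 TPM, and Notum, which removes the lipid, at 3.88 and 3.75 TPM. Of co-receptors and alternative receptors, 7 of 9 passed, with Ryk, a Wnt receptor related to tyrosine kinases, highest at 22.6 and 23.7 TPM, Kremen1, a receptor of Dkk proteins, next at 6.49 and 5.43 TPM and Kremen2 lowest at 0.550 and 0.360 TPM. Both ubiquitin ligases that R-spondins hold back passed, Znrf3 at 3.84 and 3.42 TPM and Rnf43 at 1.69 and 1.38 TPM. Porcn stood far above the other genes of these 3 lists in both libraries.

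Of other secreted or membrane-bound antagonists, 4 of 8 passed. Apcdd1, a membrane-bound inhibitor, led at 19.9 and 19.7 TPM. Igfbp4, which also binds insulin-like growth factors, was next at 17.2 and 18.1 TPM, and Cer1 was lowest at 0.0100 TPM in both. All 6 glypicans, heparan sulfate proteins that bind Wnt at the surface, passed, from Gpc1 at 38.8 and 39.6 TPM and Gpc5 at 11.1 and 14.6 TPM to Gpc3 at 1.70 and 1.79 TPM. Of planar cell polarity genes, 10 of 11 passed, with the cadherin gene Celsr3 at 80.0 and 66.8 TPM, Daam2 at 42.8 and 42.0 TPM and Celsr1 lowest at 0.280 and 0.190 TPM. Of 15 feedback and target genes, 13 passed, led by Apcdd1 and by Ccnd1, the cyclin D1 gene, at 14.1 and 14.4 TPM, with Sp8 lowest at 0.0500 and 0.0800 TPM. Axin2, at 11.1 TPM, would stand between Ccnd1 and Tnfrsf19 (8.98 and 9.25 TPM) in that list.

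**Figure D3:**
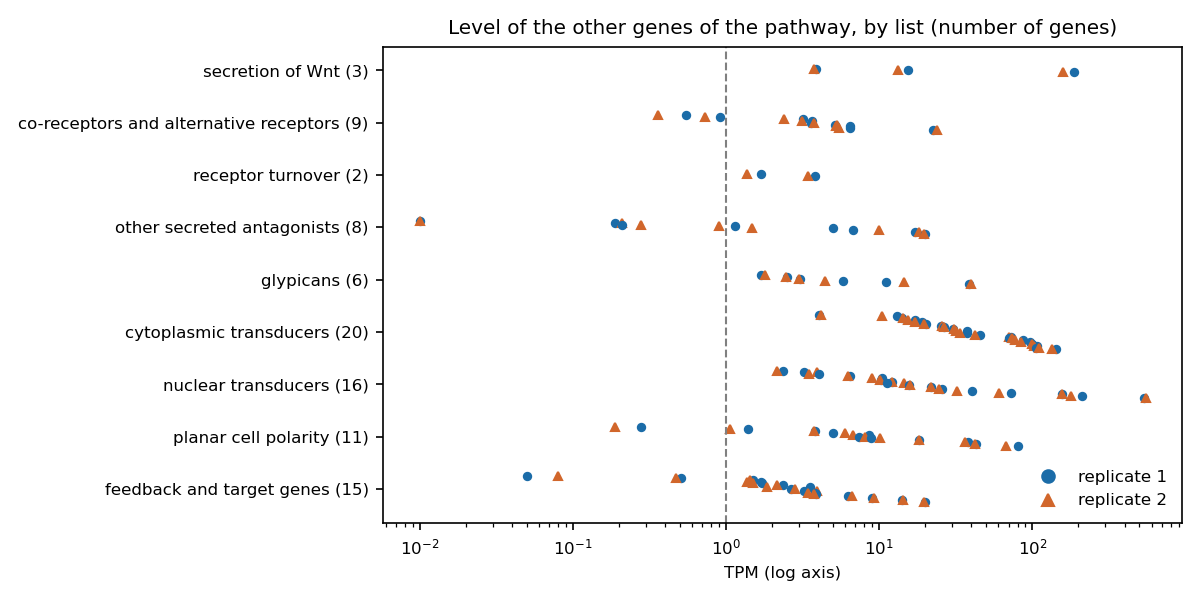
Level of the other pathway genes in TPM on a log axis, one row per list with the number of genes, circles for replicate 1 and triangles for replicate 2; the dashed line marks 1 TPM. All cytoplasmic and nuclear transducers lie to the right of the line. In the row of other secreted antagonists, which includes the membrane-bound Apcdd1, 4 of 8 genes do so in both libraries.

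To compare the libraries, the ratio of replicate 2 to replicate 1 was taken from log2 CPM (counts relative to library size) after TMM scaling, a correction for library composition. Of the 41 members with at least 10 counts over both libraries, 4 were at least 1.5-fold apart, beside 9.54% of all 19694 genes with that many counts, a share close to this background. Less than 1.2-fold apart were 26 of the 41 members, or 63.4%, beside 74.0% of all these genes. The members' median log2 ratio was -0.03, and the median of its absolute value was 0.17 beside 0.12 over all genes.

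Wif1 (ENSMUSG00000020218.7, chr10:121033960-121100650, plus strand, mm10) had 171 counts in replicate 1 and 80 in replicate 2, a log2 ratio of -1.09. Wnt16 (ENSMUSG00000029671.11, chr6:22288227-22298522, plus strand, mm10), a ligand known for its part in bone and blood stem cells, had 88 and 39 counts, a log2 ratio of -1.15. Wnt10a, a ligand of skin and tooth formation, had 46 and 29 counts, a log2 ratio of -0.64. These 3 were lower in replicate 2, and Dkk2, with 12 and 26 counts and a log2 ratio of 0.99, was higher. Sfrp4, with 203 and 141 counts and a log2 ratio of -0.53, lay just inside 1.5-fold. Replicate 2 was also the library with lower sums of choroid plexus, ependymal and meningeal markers, at 0.368, 0.633 and 0.679 of their sums in replicate 1, while the sums of the other lists lay between 0.800 and 1.19 of those in replicate 1; their part in these ratios was not tested. Xist and the Y-linked genes also differed between the libraries, and with 1 library on each side this cannot be told apart from any other difference between them.

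**Figure D4:**
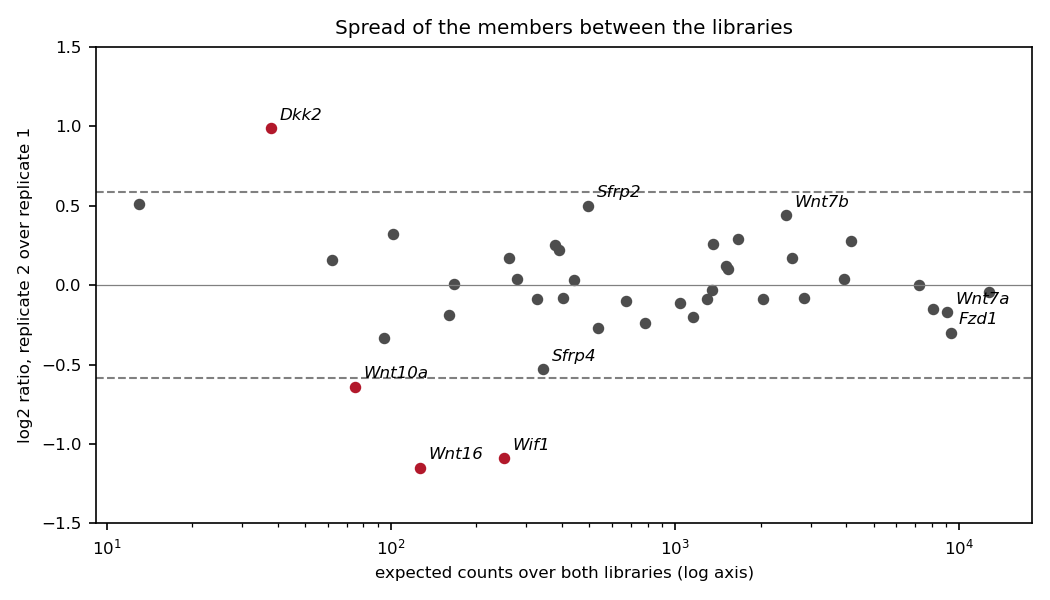
Log2 ratio of replicate 2 to replicate 1 for the 41 members with at least 10 counts, against their counts over both libraries on a log axis; dashed lines mark 1.5-fold and red points lie beyond it. Members with more than 1000 counts stay between -0.30 (Fzd1) and 0.44 (Wnt7b), and the red points are Dkk2, Wnt10a, Wnt16 and Wif1.

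The deposited transcript estimates were read for members at 1 TPM or more with at least 2 annotated transcripts. These were 14 of the 28 members at that level, and the other 14 had 1 annotated transcript each. The same transcript led in both libraries in 14 of 14, and it was protein-coding in each. These counts were not taken over all protein-coding genes, so they are not read as a trait of the members. The median share of the leading transcript was 81.6% of the gene's TPM, beside 68.4% over the 9587 protein-coding genes under the same filter. A second transcript reached 20% in both libraries in 3 of 14 members, beside 37.9% of those genes; with 14 members, the count is too small to set apart from that share.

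The 3 members were Sfrp2, Wnt5a and Wnt6. Sfrp2-202, a processed transcript of 600 bases, was given 43.4% and 27.4% of Sfrp2, from 30 and 22 expected counts. Wnt5a-202, a protein-coding transcript with another first exon, was given 28.7% and 35.6% of Wnt5a. Wnt6-202, annotated as a retained intron, was given 32.4% and 29.5% of Wnt6. Wnt5b-203, picked out after its values were seen, was given 92.3% of Wnt5b in replicate 1 and 39.5% in replicate 2, from 127 and 59 counts.

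Reads that cross a splice junction give a direct view of which exons were joined. A junction table on the mm9 assembly gives the reads of replicates numbered 1 and 2, numbers that name neither library. Annotated introns came from the Ensembl 65 exon table of the same assembly. Of 284 annotated introns in 43 members, 233 (82.0%) had reads, 9537 and 9127 in all. Fzd1, Fzd2, Fzd8, Fzd9 and Fzd10 have no annotated intron there and gave no such reads.

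Where annotated transcripts of a member compete for a splice site, the junction reads mostly fell on 1 of them. The intron that marks Sfrp2-202 had 0 of 53 reads at its donor, with an exact 95% binomial interval of 0% to 6.72%. This lies below the 43.4% and 27.4% of the transcript estimate. The reads all joined the exons of Sfrp2-201. The skip of a 195-base exon that marks Axin2-202 had 3 of 123 reads at its donor, or 2.44% (exact 95% binomial interval 0.506% to 6.96%), beside estimates of 5.27% and 11.9% for that transcript. The skip of a 72-base exon that marks Lgr4-202 had 4 of 98 reads, or 4.08% (1.12% to 10.1%), beside estimates of 3.41% and 8.88%. All 4 reads were under replicate number 2, which had 51 reads there, while number 1 had 0 of 47. The skip of a 394-base exon of Lrp6 had 10 of 121 reads, or 8.26% (4.03% to 14.7%). Such intervals cover counting error only.

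The Axin2 and Lgr4 exons are shown because nearly all reads kept them. Both lie inside the coding sequence, and their lengths are whole numbers of codons, 65 and 24. Sequences are the mm10 exons of GENCODE M21 transcripts, 5′ to 3′, with the exon in capitals and 15 bases of each neighbouring exon in lower case. The Axin2 exon is exon 7 of 11 at chr11:108942935-108943129 on the plus strand, and the Lgr4 exon is exon 2 of 18 at chr2:109970692-109970763 on the plus strand.
Axin2 exon 7: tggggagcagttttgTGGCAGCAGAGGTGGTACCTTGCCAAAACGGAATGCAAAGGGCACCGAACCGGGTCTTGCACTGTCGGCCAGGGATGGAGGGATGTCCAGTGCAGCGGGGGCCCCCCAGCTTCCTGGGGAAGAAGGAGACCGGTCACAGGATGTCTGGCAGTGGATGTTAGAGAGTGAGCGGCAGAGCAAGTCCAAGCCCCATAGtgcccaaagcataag
Lgr4 exon 2: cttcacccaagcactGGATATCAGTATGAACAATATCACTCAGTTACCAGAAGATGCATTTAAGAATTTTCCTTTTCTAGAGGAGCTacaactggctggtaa

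Annotated first exons differed in use. At the shared acceptor of Axin2, 37 of 56 reads came from the first exon of Axin2-204 and 18 from that of Axin2-201, which is 66.1% (52.2% to 78.2%) and 32.1% (20.3% to 46.0%). The deposited transcript estimates had the opposite order, with 8.68% and 9.30% of Axin2 given to Axin2-204 and 69.6% and 65.5% to Axin2-201. The measures are unlike, as 1 is a share of reads at a single site and the other a share of the whole gene's TPM. Axin2-204 is listed at 826 bases and Axin2-201 at 4260, so the orders are not set against each other. In Ensembl 65, Axin2-204 is the only transcript with the intron of those 37 reads. Whether transcripts of other annotations share it was not tested. The intron of Wnt5a-202 had 3 of 17 reads at the acceptor it shares with Wnt5a-201, or 17.6% (3.80% to 43.4%), beside transcript estimates of 28.7% and 35.6%. The 3 reads were all under replicate number 1, which had 7 reads there, while number 2 had 0 of 10. At the acceptor of Wnt7b exon 2, 143 of 148 reads, or 96.6% (92.3% to 98.9%), came from the first exon of Wnt7b-202. Axin2 thus had reads of both start regions, while those of Wnt7b fell on 1 of them almost alone. At the next Wnt7b intron, 87 of 106 reads used 1 donor and 19, or 17.9% (11.2% to 26.6%), a donor 4 bases away.

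Junctions outside the annotation were found in few of the members. Of the 23 members at 1 TPM or more with introns, 4 had a junction of at least 10 reads that uses an annotated splice site of the gene but is not an Ensembl 65 intron, beside 54.9% of 12612 protein-coding genes under the same filter. The 4 were Wnt7a, Lgr4, Dkk3 and Fzd6, with 5 such junctions in all; introns and reads per gene were not matched between the members and those genes, so nothing is read from the difference in share.

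**Figure D5:**
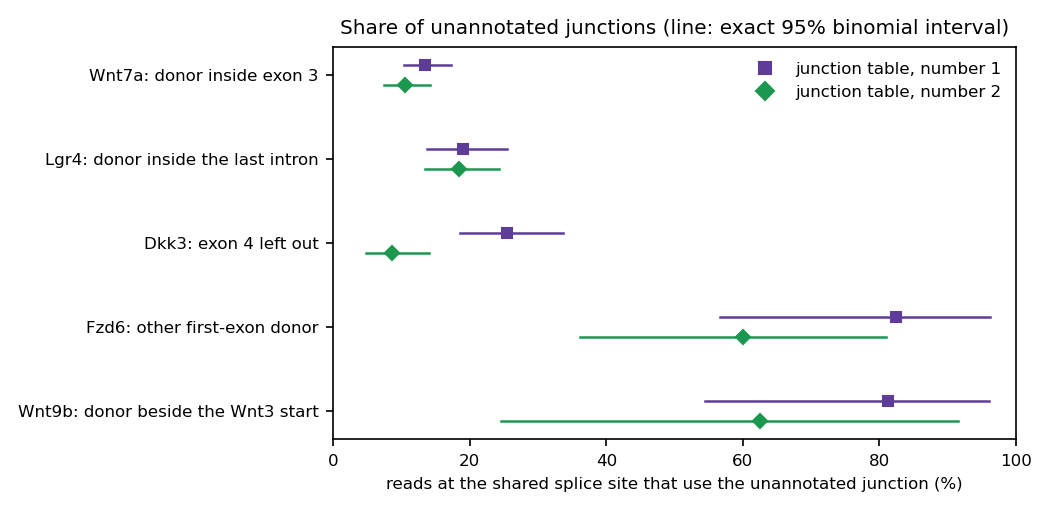
Share of the reads at a shared splice site that use the unannotated junction, in percent, for 5 members; squares and diamonds are the numbers 1 and 2 of the junction table and lines the exact 95% binomial intervals. The intervals of Dkk3 (25.5% and 8.59%) do not overlap, while those of Wnt7a, Lgr4, Fzd6 and Wnt9b do.

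In Dkk3, a junction left out exon 4. At the donor of exon 3, 35 of 137 reads, or 25.5% (18.5% to 33.7%), skipped it under number 1 and 14 of 163, or 8.59% (4.78% to 14.0%), under number 2. The 2 shares differed beyond counting error, and no annotated transcript in Ensembl 65 or GENCODE M21 has this intron; Dkk3 has 1 transcript in the deposited estimates. The exon has 84 bases, 28 whole codons, inside the coding sequence.

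In Wnt7a, a junction ended 155 bases short of the end of exon 3 of 4. It had 55 of 406 reads at the acceptor of exon 4, or 13.5% (10.4% to 17.3%), under number 1 and 37 of 354, or 10.5% (7.47% to 14.1%), under number 2. The omitted bases are 51 whole codons and 2 bases over, and they lie inside the coding sequence. They begin with GC rather than the GT with which most introns begin. Within the spliced transcript, the omitted stretch can slide by 3 bases without changing the joined sequence. Whether the junction itself can slide depends on the intron bases before exon 4, which were not read.

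Both stretches are shown because the junction reads leave them out. The Dkk3 exon lies at chr7:112148961-112149044 and the Wnt7a stretch at chr6:91394409-91394563, both mm10 and on the minus strand. Capitals mark the omitted bases, and 15 retained bases stand on each side in lower case.
Dkk3 exon 4: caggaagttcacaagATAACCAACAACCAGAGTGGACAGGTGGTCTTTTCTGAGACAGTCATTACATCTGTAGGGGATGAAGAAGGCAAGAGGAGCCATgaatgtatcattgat
Wnt7a exon 3, last bases: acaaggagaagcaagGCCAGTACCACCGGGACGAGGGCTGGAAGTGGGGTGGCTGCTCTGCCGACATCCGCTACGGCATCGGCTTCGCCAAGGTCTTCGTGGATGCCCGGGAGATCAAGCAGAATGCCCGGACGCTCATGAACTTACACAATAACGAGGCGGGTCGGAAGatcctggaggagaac

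In Lgr4, a donor 42 bases inside the last annotated intron was used by 36 of 189 reads, or 19.0% (13.7% to 25.4%), under number 1 and 39 of 212, or 18.4% (13.4% to 24.3%), under number 2. Its use did not separate between the numbers. In Fzd6, 14 of 17 and 12 of 20 reads at the acceptor of exon 2 came from a donor absent from Ensembl 65. A second Fzd6 junction joined the end of exon 2 to an acceptor absent from Ensembl 65, with 4 of 51 reads under number 1 and 8 of 42 under number 2. GENCODE M21 holds introns of the same lengths, 792 and 2129 bases, for this gene.

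Wnt9b, under 1 TPM and so outside that count, had an unannotated junction that reaches toward Wnt3. At the acceptor of Wnt9b exon 2, 13 of 16 reads, or 81.2% (54.4% to 96.0%), under number 1 and 5 of 8, or 62.5% (24.5% to 91.5%), under number 2 came from a donor 94 bases before the annotated start of Wnt3, on the strand of Wnt9b. The annotated first exon of Wnt9b had 2 reads under each number. Wnt9b thus had more reads from the neighbourhood of the Wnt3 start than from its own annotated first exon, over a small number of reads.

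The interval between Wnt9b and Wnt3 is 24328 bases in both assemblies. At the same distance from the Wnt3 start, the RefSeq promoter table of GRCm38.p6 holds a run of letters of the kind found at 5′ splice sites. It is shown because the junction points to it, 5′ to 3′ on the minus strand at chr11:103773996-103774085. Capitals mark the last 3 bases of the exon and the first 6 of the intron, which begins with GT. Searched on both strands, the 9 letters AAGGTAAGA were held by 0.283% of the 32851 promoter windows of that table. The match is a description of these letters and not a test of the site.
Upstream of Wnt3, minus strand: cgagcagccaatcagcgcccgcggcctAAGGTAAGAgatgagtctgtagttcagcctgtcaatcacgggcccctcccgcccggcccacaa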

How the data were processed

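The libraries are stranded, paired-end, polyadenylated RNA above 200 nucleotides, per the labels. Gene and transcript tables on mm10 were made by the authors with the GENCODE M4 annotation, per the accompanying file index, and hold expected counts (estimated fragments per feature). The deposited tables also give TPM and FPKM, per the file headers, with TPM taken over all entries, spike-ins included. The percent of a gene's TPM by transcript is the authors' value, per the file headers. On mm9, the deposited junction table gives counts of reads, and the deposited gene and exon tables give RPKM on Ensembl 65. Neither aligner nor quantification program is named in the labels or headers; the column names are those RSEM writes.

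The members, the lists and the thresholds were chosen with earlier results of these data known. Gene identifiers were matched without version to GENCODE M21, with 42462 of 43346 (98.0%) found. Levels are deposited TPM; a member counted as detected at 1 TPM in both libraries. Expected counts were rounded, and log2 CPM was taken with edgeR 4.0.16 (TMM, prior count 2), with 1.5-fold and at least 10 counts as thresholds; with 1 library on each side there is no test. The calculation was run on simulated counts with planted 2-fold changes, scored only for genes with higher counts. That run checked the arithmetic only and says nothing of low-count members such as Dkk2 and Wnt10a. Second transcripts were counted from 20%, junctions from 10 reads. Exact binomial intervals at 95% came from SciPy 1.17.1. Members at 1 TPM or more, the 10 next highest, those past 1.5-fold, those with a second transcript, and the 2 highest and the lowest gene of each pathway list were named. Alternatives were other units, thresholds, scalings and leaving out a library. Exon sequences came from GENCODE M21 transcripts, without conversion of coordinates between builds. Junctions were read on mm9, and the exon bases they leave out were found on mm10 through the same transcript identifier, exon number and exon length. The Wnt9b donor was placed on mm10 by its distance from the Wnt3 start, with the same Wnt3 to Wnt9b distance in both builds. No protein sequence and no whole genome was used here.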

Additional observations from a re-analysis of the deposited data

How the results depend on the processing

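Leaving out a library kept the median member level between 1.65 and 1.71 TPM, the members detected between 28 and 31, and the class sums between 53.0 and 58.5 TPM for ligands, 71.9 and 82.9 TPM for Frizzled and Lrp receptors together, 30.1 and 32.1 TPM for secreted inhibitors, and 24.4 and 25.1 TPM for R-spondins with Lgr receptors. In FPKM the median member was at 1.11 and these sums at 36.2, 50.2, 20.2 and 16.1; the last sum was 25.3 in posterior mean TPM. TPM rescaled to protein-coding genes gave a median of 2.03, and mm9 RPKM 0.192, with 8 members at 1 or more in both replicates; over the 48 members the order by RPKM had a Spearman correlation of 0.996 with that by TPM, from the same libraries. At 5 TPM, 12 members were detected. The count of members at least 1.5-fold apart was 4 or 5 under other scalings of the counts and prior counts; it was 1 (Wif1) by the ratio of TPM + 1, which shrinks low genes, 2 with a minimum of 100 counts, 7 with no minimum and 2 at 2-fold. The median log2 ratio went from -0.03 to -0.09 with spike-in scaling. The median leading share was 78.5% of posterior mean TPM and 89.4% of expected counts. A second transcript was found in 6 members from 10% and in 0 from 30%. Unannotated junctions were found in 8 members from 5 reads and in 4 from 20 reads. The cause of these shifts was not tested beyond the construction of each setting. No paired analysis was possible because there is only 1 group. Depth limits the members under 10 counts, 7 of 48, whose order cannot be read.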

Other observations

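Genes near this family that the naming rule leaves out were looked up after the levels were seen. Frzb, a secreted Frizzled-related protein also known under an Sfrp name, was at 2.17 and 2.36 TPM, within the range of the Sfrp genes. Ndp, which encodes Norrin, the ligand of Fzd4 that is no Wnt protein, was at 9.83 and 9.30 TPM. These values were above those of Wnt3, 9.53 and 8.63 TPM, in each library. In the mean, Ndp was above Wnt3 by less than the spread of Wnt3 between libraries.

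Junction reads on the strand opposite to a member were found inside 3 members. The span of Wnt5b held 107 such reads over 26 junctions, 49 and 58 under the numbers 1 and 2, beside 38 and 35 reads over its own annotated introns. The span of Lgr5 held 27 and that of Wnt10a 16. The libraries are stranded per the labels, and which genes these reads belong to was not examined.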
